A study of Mus musculus with 6 samples.

Results

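The replication-dependent histone genes were examined in brain of mice at postnatal day 15. They were taken as every protein-coding gene of GENCODE M21 whose symbol starts with Hist1h, Hist2h, Hist3h or Hist4h, which gave 67 of the 54532 genes in the deposited table. Brain RNA was sequenced as 150-base read pairs in 3 Angptl2+/+ and 3 Angptl2-/- libraries, and levels were given as FPKM (fragments scaled to transcript length and library size). The knockout lacked exon 2 of Angptl2, which encodes a secreted angiopoietin-like protein, after crossing floxed animals to a Stra8-Cre line. A C57BL/6 background was stated for the floxed animals, but no strain for the Cre line or the wild-type females of the cross. The labels did not name the animal behind each library, so p-values measured the spread between these samples, of whatever source. Of the 67 genes, 13 exceeded a mean of 0.5 FPKM, 36 were detected in some library at or under that level, and 18 were listed at 0 in all 6 libraries.

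Histone proteins package DNA into nucleosomes. The core particle is built from H2A, H2B, H3 and H4, and the linker histone H1 binds where DNA enters and leaves it. Most of the genes for these proteins lie in tandem clusters, are transcribed as cells copy their DNA, and give messengers that end just after a short stem-loop in place of a poly(A) tail. The stem-loop is bound by SLBP, and the messenger is cut downstream of it with the help of the U7 small nuclear RNA. Some cluster genes are also known to give polyadenylated messengers in cells that have stopped dividing, as neurons have. The sources used here did not give how RNA was selected for the libraries, which bears on every level below, since a selection for poly(A) recovers tailless messengers poorly.

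The stem-loop is shown first because it divides the family in the way the annotation ends its transcripts. It was found in GENCODE transcripts of 46 of the 67 genes and in 101 of 58725 protein-coding transcripts of other genes (0.172%). Capitals mark the loop element of 16 bases, which is a stem of 6 base pairs around a loop of 4 bases, with up to 5 flanking transcript bases on each side, for the highest member of H2B, H1, H4 and H3, for the H4 gene with the largest genotype difference, and for a Hist1 H3 gene with another loop.
Hist3h2ba: ccaaaGGCTCTTTTCAGAGCCacctt
Hist1h1c: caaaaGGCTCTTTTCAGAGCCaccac
Hist2h3c2: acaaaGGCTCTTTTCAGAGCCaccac
Hist1h4i: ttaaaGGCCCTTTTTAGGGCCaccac
Hist1h4h: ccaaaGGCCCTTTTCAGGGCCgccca
Hist1h3e: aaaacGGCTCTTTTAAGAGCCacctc
There were 8 distinct elements. The form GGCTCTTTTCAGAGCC was carried by 26 genes of H1, H2A, H2B and H3, and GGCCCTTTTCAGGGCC by 7 genes of H4. No H4 gene shared an element with another class.

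Levels differed by where the annotated transcript ended. Of the 23 genes whose transcript ran on for more than 100 bases past the loop, 9 exceeded 0.5 FPKM and 1 was at 0 in all libraries, with a median level of 0.335 FPKM. Of the 23 whose transcript ended within 100 bases of it, 1 (Hist1h4h) exceeded 0.5 FPKM and 10 were at 0, with a median of 0.0363 FPKM. The other 21 had no loop in any annotated transcript; 3 of them (Hist1h2bc, Hist2h2be and Hist1h4k) exceeded 0.5 FPKM and 7 were at 0. A short model such as that of Hist1h4k, with 312 bases, ends with the coding sequence and cannot show a loop beyond it. Other models without a loop were long, such as that of Hist2h2be with 2620 bases. Only annotated transcripts were searched, so whether these 21 genes carry a loop outside them was not examined. The 9 running on carried 155 to 1861 bases after the loop. AATAAA, the core of the polyadenylation signal, stood in the last 40 bases of the transcript in 5 of the 13 genes over 0.5 FPKM and in 11 of all 67. These are descriptions of gene models and levels. FPKM is already scaled to length, but a long model offers more bases to which a fragment can be assigned, which bears on the genes at 0. No comparison of the 3 kinds was tested.

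**Figure D1:**
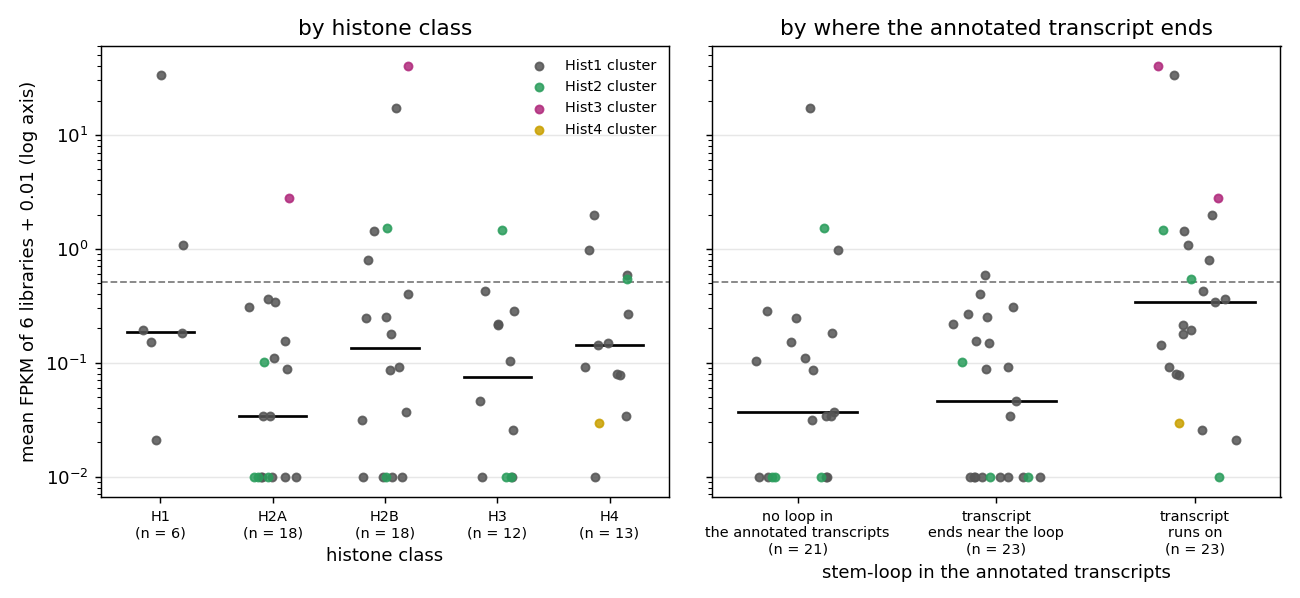
Mean FPKM of 6 libraries plus 0.01 (log axis) of all 67 genes, by histone class (left) and by where the annotated transcript ends relative to the stem-loop (right). Each point is 1 gene coloured by cluster, black bars are medians, and the dashed line is 0.5 FPKM; the right-hand column, where transcripts run on past the loop, holds 9 of the 13 genes above the line.

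By class, the count over 0.5 FPKM was 2 of 6 for H1, 1 of 18 for H2A, 5 of 18 for H2B, 1 of 12 for H3 and 4 of 13 for H4. By cluster, it was 8 of 54 for Hist1 on chromosome 13, 3 of 10 for Hist2 on chromosome 3, both genes of Hist3 on chromosome 11, and not the single gene of Hist4 on chromosome 6, Hist4h4, which had a mean of 0.0197 FPKM. All positions are of GRCm38, the assembly of the annotation used here. A few genes stood far above the rest: Hist3h2ba, Hist1h1c and Hist1h2bc held 83.1% of the summed mean FPKM of the family. The family as a whole took 0.0122% of the fragments recovered from the table.

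The 18 genes at 0 were 8 of H2A, 5 of H2B, 4 of H3 and 1 of H4. A total of 0 fragments over the 6 libraries allowed at most 3, or 0.0157 to 0.0750 FPKM depending on the length of the gene, which covers counting error only. Sequence shared with other genes limits these zeros. A median of 74.0% of the 100-base windows in their transcripts also occurred in another gene, against 24.7% in the 13 genes over 0.5 FPKM and 35.7% in the 36 between. Windows were matched on either strand, so genes annotated over the same bases count here as well as near-identical members. All 5 genes in which every window was shared, among them Hist2h2aa1 and Hist2h2aa2, were at 0. Each of them also shared exon bases with another annotated gene, such as Gm20628 for Hist2h3b and Hist2h2bb. How reads that fit several genes were counted is not given in the sources used here, so the split between near-identical or overlapping genes is uncertain. Around the limit of 0.5 FPKM, Hist1h4h (0.580 FPKM) and Hist2h4 (0.537 FPKM) stood just above, and Hist1h3d (0.417 FPKM) and Hist1h2bj (0.390 FPKM) just below.

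The libraries were of similar depth, and they differed from each other by more than counting noise. The worth of 1 fragment in FPKM gave library sizes of 16382566 to 19175242 fragments. Summed over all genes, values that were not whole included, the fragments came to 17127262 to 18928920 per library. The targeted gene was low throughout: Angptl2 read 0.660, 0.958 and 0.290 FPKM in Angptl2+/+ and 0.166, 0.320 and 0.126 FPKM in Angptl2-/-, so 1 Angptl2-/- library was above 1 Angptl2+/+ library. It was below the level tested. Tissue content was uneven. The summed FPKM of 5 choroid plexus markers was 1.31 to 6.92 in Angptl2+/+ and 103 to 932 in Angptl2-/-, that of 5 red blood cell markers was 302 to 498 and 125 to 274, and that of 9 cerebellar markers was 114 in Angptl2+/+ replicate 1 and 16.7 to 38.1 in the other libraries. All 5 neuronal markers were detected, with a summed FPKM of 737 to 950. The 5 striatal markers all had positive fold changes (median log2 1.56; sums of 32.9 to 84.2 FPKM in Angptl2+/+ and 69.8 to 157 FPKM in Angptl2-/-), and the 5 markers of mature oligodendrocytes all had negative ones (median log2 -0.65; 721 to 1496 FPKM and 463 to 882 FPKM). Xist, expressed from the inactive X chromosome of females, was over 27 FPKM in 2 Angptl2+/+ and 1 Angptl2-/- libraries and at or under 0.070 FPKM in the other 3, which had the Y-linked Ddx3y, so the sexes were not balanced. In bulk tissue, fewer cells of a type and less RNA per cell cannot be told apart.

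No histone gene passed the genome-wide test between genotypes. Levels were compared with limma on log2(FPKM + 0.1), which understates changes of low genes, over the 14862 genes with a mean of at least 0.5 FPKM, and p-values were adjusted by Benjamini-Hochberg over all of them. None of the 13 histone genes was called at an adjusted p under 0.05 in either direction, where the share of all genes called was 0.0% higher and 0.0% lower; the lowest adjusted p of the family and of the whole table was 0.273. With an unadjusted p below 0.05, 2 of the 13 were lower in Angptl2-/-, where 9.12% of all tested genes were, and 0 were higher, where 7.09% of all tested genes were. The 3 Angptl2-/- libraries all lay below the 3 Angptl2+/+ libraries in the same 2 genes, Hist3h2ba and Hist1h4h (11.8% of all tested genes did), and above in 0 (10.7% of all tested genes). Fold changes were negative in 11 of the 13 and positive in 2 (Hist1h4k, counted as negative, had the higher mean FPKM in Angptl2-/-), where 50.6% of all tested genes were negative. The median log2 fold change of the 13 was -0.29, against -0.0043 for all tested genes. It was 0.061 without Angptl2+/+ replicate 1 and 0.054 without Angptl2-/- replicate 3, so the direction of the median rested on single libraries. Angptl2+/+ replicate 1 held the highest level in 9 of the 13 genes, where it held the highest level in 17.5% of all tested genes.

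**Figure D2:**
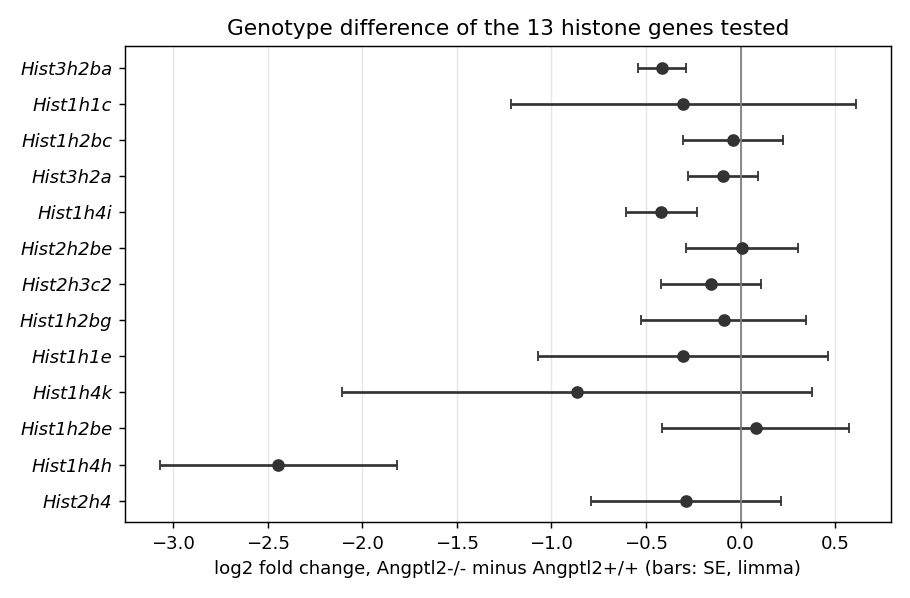
Log2 fold change on the log2(FPKM + 0.1) scale, Angptl2-/- minus Angptl2+/+, for the 13 histone genes tested, in order of mean level; bars are standard errors from limma with 3 libraries per genotype. Hist3h2ba and Hist1h4h lie farthest below 0 in units of their error, and Hist1h1c, Hist1h1e and Hist1h4k have wide errors.

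**Figure D3:**
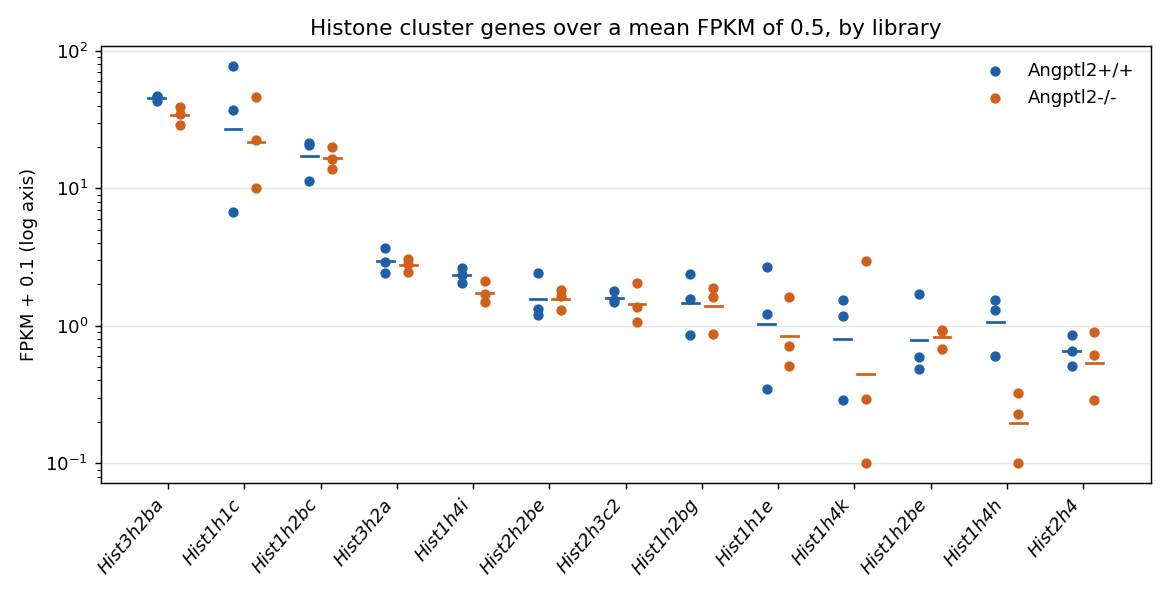
FPKM plus 0.1 (log axis) of the 13 histone genes over a mean of 0.5 FPKM; each point is 1 library, blue for Angptl2+/+ and orange for Angptl2-/-, and horizontal bars are means on the log scale. The 2 colours separate only in Hist3h2ba and Hist1h4h; Hist1h1c and Hist1h1e spread over more than 10-fold in FPKM across the 6 libraries.

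Among the H2B genes, Hist3h2ba (ENSMUSG00000056895, chr11:58948920-58949533, plus strand) had the highest level of the family. Its FPKM was 42.8, 47.2 and 46.1 in Angptl2+/+ and 39.1, 34.6 and 29.0 in Angptl2-/-, or 45.4 ± 2.30 against 34.2 ± 5.03 (SD, n = 3 per genotype). All 3 Angptl2-/- libraries were below all 3 Angptl2+/+ libraries, on 2576 fragments in total. The log2 fold change was -0.41 (SE 0.13, adjusted p = 0.273), which did not pass. The fold change shrank to -0.15 after a correction for GC content and to -0.26 after one for gene length. Of the 17 gene lists summed here, 2 had lower sums in every Angptl2-/- library than in any Angptl2+/+ library, as Hist3h2ba did. Those 2 are the lists set beside it. The 4 endothelial markers, all detected, summed to 52.4 to 59.2 FPKM in Angptl2+/+ and 37.9 to 46.5 FPKM in Angptl2-/-, but their median log2 fold change was -0.087, with 3 negative and 1 positive, and the fall of the sum came mostly from Cldn5, a tight junction protein and alone among them with an unadjusted p below 0.05 (log2 fold change -0.69, SE 0.18, adjusted p = 0.273). The 5 red blood cell markers, all detected, had the range given above. All 5 were lower with an unadjusted p below 0.05, where 9.12% of all tested genes were. The part of these cells in the difference of Hist3h2ba was not tested.

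The other H2B genes overlapped between genotypes. Hist1h2bc (ENSMUSG00000018102, chr13:23684199-23692908, plus strand), with no stem-loop in its annotated transcripts, read 21.1, 20.7 and 11.2 FPKM in Angptl2+/+ and 20.03, 16.3 and 13.8 FPKM in Angptl2-/-. Angptl2+/+ replicate 3 was the lowest library, and the log2 fold change was -0.040 (SE 0.26, adjusted p = 0.953). Hist2h2be, the H2B gene of the Hist2 cluster with a model of 2620 bases, read 2.31, 1.22 and 1.10 FPKM against 1.71, 1.54 and 1.21 FPKM (log2 fold change 0.0070, SE 0.30, adjusted p = 0.992). Hist1h2bg read 2.27, 1.46 and 0.763 FPKM against 1.52, 0.767 and 1.78 FPKM (log2 fold change -0.090, SE 0.44, adjusted p = 0.934). Hist1h2be, the remaining H2B gene tested, had a mean of 0.784 FPKM and shares exon bases with Hist1h1e on the same strand, so reads in the overlap cannot be told apart without knowing how they were counted.

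Both tested linker histone genes ranged over more than 10-fold between libraries. Hist1h1c (ENSMUSG00000036181, chr13:23738808-23740367, plus strand), which encodes a somatic H1, read 77.8, 36.9 and 6.61 FPKM in Angptl2+/+ and 45.7, 22.2 and 9.98 FPKM in Angptl2-/-. The highest and the lowest library were both Angptl2+/+ and differed 11.8-fold, while the genotypes overlapped in full. The log2 fold change was -0.30 (SE 0.91, adjusted p = 0.886), and it was 0.47 without Angptl2+/+ replicate 1 and 0.25 without Angptl2-/- replicate 3. Hist1h1e (ENSMUSG00000051627, chr13:23620629-23622558, minus strand), another somatic H1, read 2.55, 1.11 and 0.244 FPKM against 1.51, 0.614 and 0.411 FPKM, with a 10.5-fold range and the same order of the 6 libraries. Its log2 fold change was -0.30 (SE 0.77, adjusted p = 0.865), with 0.38 without Angptl2+/+ replicate 1 and 0.054 without Angptl2-/- replicate 3. That order of the 6 libraries, chosen here from Hist1h1c, was found in 49 of the 14862 tested genes (0.330%), these 2 included. The other 4 linker genes were at or below 0.183 FPKM. Hist1h1d, the next, had 55, 24 and 3 fragments in Angptl2+/+ and 44, 20 and 1 in Angptl2-/-. Its libraries fell in the order of Hist1h1c except that the lowest 2 changed places.

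Marker lists moved beside Hist1h1c. A list of 12 meningeal fibroblast genes, written after the Hist1h1c levels were seen, summed to 44.0, 38.7 and 10.7 FPKM in Angptl2+/+ and 33.5, 25.2 and 15.0 FPKM in Angptl2-/-. All 12 were detected, 8 of the 12 had negative fold changes, none of them with an unadjusted p below 0.05, and Angptl2+/+ replicate 3 had the lowest sum as it had the lowest Hist1h1c. The 9 cerebellar markers summed to 114, 38.1 and 16.7 FPKM against 37.2, 17.8 and 21.7 FPKM. In both lists, as for Hist1h1c, Angptl2+/+ replicate 1 was the highest library and Angptl2+/+ replicate 3 the lowest. The same held for 5 of the 17 gene lists summed here, the others being astrocyte markers (203 and 146 FPKM in these 2 libraries), oligodendrocyte precursor markers (75.5 and 46.3 FPKM) and the variant histone genes (326 and 214 FPKM), so the pattern was not particular to the fibroblast and cerebellar lists. Their part in the levels of Hist1h1c and Hist1h1e was not tested.

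**Figure D4:**
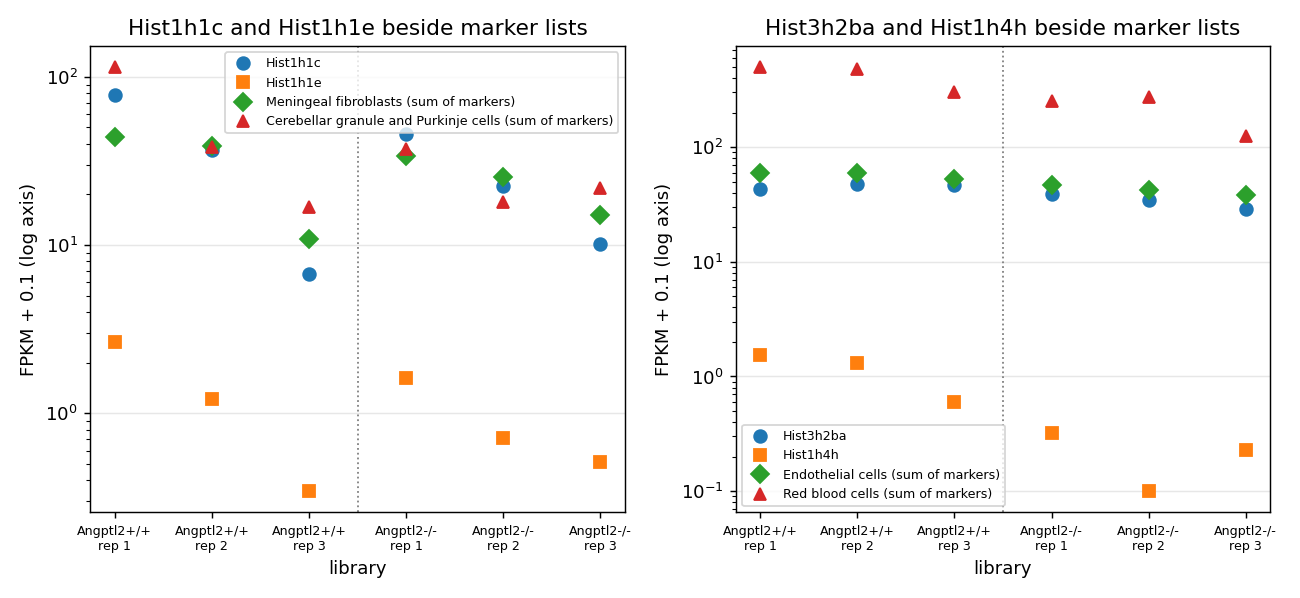
FPKM plus 0.1 (log axis) in each of the 6 libraries, for Hist1h1c and Hist1h1e beside the summed levels of meningeal fibroblast and cerebellar markers (left), and for Hist3h2ba and Hist1h4h beside those of endothelial and red blood cell markers (right). On the left all 4 series are lowest in Angptl2+/+ replicate 3 and highest in Angptl2+/+ replicate 1; on the right all 4 are lower in the 3 Angptl2-/- libraries.

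The region upstream of the 2 linker genes is printed because their levels followed the same order of libraries. These are the 130 bases before the start in RefSeq on GRCm38.p6, written along the gene's strand, with capitals for AAACACA (the H1 box), CCAAT (or ATTGG on the other strand) and TATAAA (or TTTATA on the other strand); the region of Hist3h2ba, the highest gene, stands beside them.
Hist1h1c, chr13:23738677-23738806, plus strand: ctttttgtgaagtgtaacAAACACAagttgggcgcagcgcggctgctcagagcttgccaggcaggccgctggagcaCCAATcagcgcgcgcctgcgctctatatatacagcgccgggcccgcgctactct
Hist1h1e, chr13:23622559-23622688, minus strand: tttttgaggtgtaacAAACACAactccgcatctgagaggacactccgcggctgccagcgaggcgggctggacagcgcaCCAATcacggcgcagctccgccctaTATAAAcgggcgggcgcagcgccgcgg
Hist3h2ba, chr11:58948781-58948910, plus strand: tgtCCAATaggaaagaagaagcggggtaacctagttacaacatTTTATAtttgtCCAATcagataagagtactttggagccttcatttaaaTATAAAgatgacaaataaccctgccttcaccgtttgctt
In both linker genes the H1 box stands upstream of a CCAAT box. RefSeq gave a promoter for 62 of the 67 genes, and the letters were searched on both strands of the 250 bases before the start. AAACACA stood in 5 of 6 H1 promoters and in 6.25% of all 32851 promoters. ATTTGCAT, the octamer known from H2B promoters, stood in 7 of 16 H2B and 7 of 18 H2A promoters, in none of H1, H3 or H4, and in 1.60% of all. CCAAT stood in every promoter of H1, H2A and H2B, in 8 of 10 of H3 and in 3 of 12 of H4, against 33.8% of all promoters. TATAAA stood in 4 of 6 of H1, 7 of 18 of H2A, 8 of 16 of H2B, 4 of 10 of H3 and 6 of 12 of H4, against 12.4% of all. These matches are descriptions of letters, not of bound sites.

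Of the H4 genes, which encode one and the same core histone, Hist1h4h (ENSMUSG00000060981, chr13:23531050-23531519, plus strand) differed most between genotypes. It read 1.43, 1.20 and 0.501 FPKM in Angptl2+/+ and 0.222, 0 and 0.130 FPKM in Angptl2-/-, which corresponded to 12, 10 and 4 fragments against 2, 0 and 1. The groups did not overlap. With 26 fragments against 3, the ratio of Angptl2-/- to Angptl2+/+ was 0.116 (95% exact interval 0.0224 to 0.378, counting error only). The log2 fold change was -2.44 (SE 0.63, adjusted p = 0.273), and it depended on the pseudocount, at -0.85 with 1 FPKM and -3.81 with 0.01 FPKM. A share of 38.5% of its 100-base windows also occurred in other genes. In this range single fragments decide the value.

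The other H4 genes overlapped between genotypes. Hist1h4i (ENSMUSG00000060639, chr13:22040636-22041362, minus strand), the highest H4 gene, read 2.54, 2.24 and 1.95 FPKM against 2.01, 1.39 and 1.60 FPKM. One Angptl2-/- library lay above 1 Angptl2+/+ library, and the log2 fold change was -0.42 (SE 0.19, adjusted p = 0.326). Hist1h4k, whose model of 312 bases ends with the coding sequence, had 8, 6 and 1 fragments against 17, 0 and 1, so that 1 Angptl2-/- library held most of its Angptl2-/- reads (log2 fold change -0.86, SE 1.24, adjusted p = 0.743, and 0.21 without Angptl2-/- replicate 2). Its mean FPKM, in contrast to its mean on the log scale, was higher in Angptl2-/-, at 1.01 against 0.903. Hist2h4 read 0.413, 0.552 and 0.759 FPKM against 0.800, 0.509 and 0.187 FPKM (log2 fold change -0.29, SE 0.50, adjusted p = 0.791), with the highest and lowest libraries both Angptl2-/-.

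H2A and H3 each had a single gene above 0.5 FPKM. Hist3h2a (ENSMUSG00000078851, chr11:58954685-58956830, plus strand), which lies beside Hist3h2ba, read 3.55, 2.31 and 2.83 FPKM in Angptl2+/+ and 2.97, 2.37 and 2.70 FPKM in Angptl2-/-. The genotypes overlapped in full, with a log2 fold change of -0.092 (SE 0.18, adjusted p = 0.821), and the gene shares exon bases with Trim17 on the same strand. Hist2h3c2 (ENSMUSG00000081058, chr3:96238108-96239127, minus strand) read 1.70, 1.44 and 1.39 FPKM against 1.94, 1.28 and 0.957 FPKM (log2 fold change -0.16, SE 0.27, adjusted p = 0.786). Its near copy Hist2h3c1 was at 0 in all libraries, and 61.6% of the windows of Hist2h3c2 occurred in other genes.

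The 36 detected genes at or under 0.5 FPKM held 1 to 147 fragments over the 6 libraries and were below the level tested. Over all 49 detected genes, the Angptl2-/- libraries all lay under the Angptl2+/+ libraries in 5 genes (10.2%) and over them in 3 (6.12%), where 7.12% and 7.24% of all 29827 detected genes did. Fitted without the filter on level, none was called (0.0% of all genes in either direction), and 4 were lower and 2 higher with an unadjusted p below 0.05, where 5.29% and 4.54% of all detected genes were. Besides Hist3h2ba and Hist1h4h, the genes below were Hist1h3d, Hist1h2bj and Hist2h2ac. Hist1h3d read 0.538, 0.451 and 0.660 FPKM against 0.376, 0.332 and 0.147 FPKM, and Hist1h2bj, an H2B gene, read 0.968, 0.608 and 0.509 FPKM against 0, 0.256 and 0 FPKM. For Hist1h2bj this was 17 fragments against 2, a ratio of 0.118 (95% exact interval 0.0132 to 0.497). Hist2h2ac had 1, 1 and 3 fragments against 0 in each. The genes above were Hist1h2ad, with 1, 2 and 2 fragments against 4, 7 and 2, Hist1h3i, with 1, 0 and 0 against 5, 2 and 4, and Hist1h2br, with 0 in each against 2, 2 and 1. Hist2h2ac, Hist1h2ad, Hist1h3i and Hist1h2br were singled out after their values were seen, and they rest on few fragments: for Hist1h2ad the lowest Angptl2-/- library ties with 2 Angptl2+/+ libraries at 2 fragments and is apart from them in FPKM only (0.213 against 0.206 at most). For a single gene the exact two-sided permutation test with 3 libraries against 3 cannot go below p = 0.1, the value it gave for Hist1h3d and Hist1h2bj.

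Summed over all 67 genes, FPKM was 169, 123 and 77.9 in Angptl2+/+ and 127, 87.2 and 67.1 in Angptl2-/-. Without Hist1h1c it was 90.9, 86.5 and 71.3 against 81.1, 65.0 and 57.1, or 82.9 ± 10.3 against 67.8 ± 12.2 (SD, n = 3 per genotype). Both sums overlapped between genotypes, and the SD over the Angptl2+/+ libraries was 45.4 with Hist1h1c and 10.3 without it.

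Genes that serve the histone supply were set beside the family. Of 15 genes of histone messenger synthesis and 3′ processing, 14 were tested and none was called; 10 had positive and 4 negative fold changes, and 0 had an unadjusted p below 0.05. Ncbp1, a cap-binding subunit, read 15.5, 15.8 and 17.7 FPKM against 17.7, 19.8 and 20.9 FPKM (log2 fold change 0.25, SE 0.11, adjusted p = 0.313). Sympk, the scaffold of the cleavage complex, had a log2 fold change of -0.24 (SE 0.12, adjusted p = 0.348) and Cpsf2, another subunit, 0.21 (SE 0.12, adjusted p = 0.401). Ncbp2, at 19.99 FPKM the most abundant of the list, had 0.037 (SE 0.10, adjusted p = 0.876). Slbp, which binds the stem-loop and is named here outside the naming rule, had a mean of 3.10 FPKM and overlapped between genotypes.

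Of 12 histone chaperone and assembly genes, 9 were tested and none was called; 2 were higher and 0 lower with an unadjusted p below 0.05 (7.09% and 9.12% of all tested genes). Hat1, which acetylates new H4, read 3.88, 3.76 and 3.84 FPKM in Angptl2+/+ and 4.93, 5.28 and 5.29 FPKM in Angptl2-/-, without overlap (log2 fold change 0.42, SE 0.10, adjusted p = 0.273). Asf1a, a chaperone of H3 and H4, had a log2 fold change of 0.56 (SE 0.20, adjusted p = 0.278). Rbbp7, a partner of Hat1 and at 39.8 FPKM the most abundant of the list, had 0.25 (SE 0.12, adjusted p = 0.339), and its groups did not overlap. In 3 of the 9 the Angptl2-/- libraries all lay above (10.7% of all tested genes), and in 0 below (11.8% of all tested genes).

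All 11 variant histone genes outside the clusters were tested and none was called. Fold changes were negative in 8 and positive in 3, with a median log2 fold change of -0.31, and 2 were lower with an unadjusted p below 0.05 (9.12% of all tested genes). The same 2 lay below without overlap (11.8% of all tested genes). H1fx, a linker variant, read 20.3, 21.6 and 16.5 FPKM against 14.6, 12.02 and 9.33 FPKM, without overlap (log2 fold change -0.71, SE 0.18, adjusted p = 0.273). H2afj, an H2A variant, read 13.9, 18.6 and 10.8 FPKM against 10.2, 8.54 and 6.23 FPKM, also without overlap (log2 fold change -0.78, SE 0.24, adjusted p = 0.273). H2afx, the variant phosphorylated at DNA breaks, had -0.31 (SE 0.16, adjusted p = 0.370), and H3f3b, at 62.8 FPKM the most abundant, had 0.015 (SE 0.23, adjusted p = 0.980). The summed level of the 11 was 214 to 326 FPKM in Angptl2+/+ and 219 to 288 FPKM in Angptl2-/-, above that of the whole cluster family in every library.

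Of 18 genes of S phase and proliferation, 14 were tested and none was called; 12 had positive and 2 negative fold changes, and 2 were higher with an unadjusted p below 0.05 (7.09% of all tested genes). In 4 of the 14 the Angptl2-/- libraries all lay above (10.7% of all tested genes). Mki67, a marker of cycling cells, read 0.206, 0.571 and 0.146 FPKM against 0.736, 0.877 and 0.868 FPKM (log2 fold change 1.32, SE 0.46, adjusted p = 0.277). Top2a, a topoisomerase of dividing cells, had 1.22 (SE 0.47, adjusted p = 0.287), and Mcm7, a subunit of the replicative helicase, 0.26 (SE 0.14, adjusted p = 0.375). The groups of these 3, and of Mcm6, did not overlap. Pcna, the replication clamp and at 14.1 FPKM the most abundant, had 0.053 (SE 0.11, adjusted p = 0.835). The median log2 fold change was 0.22 for these genes and -0.29 for the 13 histone genes; the difference between the lists was not tested.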

How the data were processed

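Mouse brain RNA (postnatal day 15) was sequenced as Illumina read pairs in 3 Angptl2+/+ and 3 Angptl2-/- libraries. The authors deposited 1 table of FPKM values per gene and library. The submitters' notes name Bowtie 0.12.2 and mm8, but 54495 of the 54532 gene identifiers are in GENCODE M21, which is built on GRCm38. The sources used here do not give the counter, the strand setting or the RNA selection. Symbols, positions and lengths were taken from GENCODE M21.

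FPKM values were whole multiples of 1 fragment's worth for 96.6% to 96.8% of the values per library (within 0.05 of a whole fragment), which gave fragments per gene; all values of the 67 histone genes came out whole. Intervals cover counting error only. Differences were tested with limma 3.58.1 (R 4.3.3) on log2(FPKM + 0.1), with an intensity trend, two-sided, where the mean reached 0.5 FPKM, Benjamini-Hochberg over all 14862. The fit was run on simulated data with less noise than these libraries and large planted differences. That run does not measure what the fit can detect here. Members, gene lists and tests were chosen with earlier results of these data known.

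Genes were named by a rule: the highest gene and the gene with the smallest p of each class, the 10 highest, those at an unadjusted p under 0.05, the 2 on each side of 0.5 FPKM, and the 3 smallest p and the highest of each other list. Left out were 3 pseudogene rows. Stem-loops were searched in transcript sequences and promoter letters in RefSeq sequences. Alternatives were another pseudocount, filter, scaling, moderation, replicate block, leaving out each library, limma-voom on the recovered fragments, and GC and length corrections. The GC content was that of the transcript.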

Additional observations from a re-analysis of the deposited data

How the results depend on the processing

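No histone gene passed an adjusted p under 0.05 under any alternative run, limma-voom on the recovered fragments included. Over all genes, the replicate block gave 1 called gene higher in Angptl2-/- and leaving out Angptl2+/+ replicate 1 gave 1 lower, against 0. Over all tested genes, the correlations of same-numbered deviations were 0.037, -0.069 and 0.16, and not every sample correlated best with its own number. The replicate block lowered the SE of Hist1h1c from 0.91 to 0.28 and that of Hist1h2bc from 0.26 to 0.15. That of Hist3h2ba rose from 0.128 to 0.134. These values cannot decide whether replicate numbers pair the samples, which the labels do not say. The block changed no call of a histone gene. With no filter, 4 histone genes fell under an unadjusted p of 0.05 on the low side and 2 on the high side, and 5 lay below and 3 above without overlap. With a minimum mean of 1 FPKM, which leaves Hist1h4h out, 1 was lower and 1 lay below without overlap; the GC and the length correction each left 1 lower, and the cause was not tested. Leaving out 1 library gave 2 to 4 genes below and 0 to 1 above without overlap, with 4 below without Angptl2+/+ replicate 3 or without Angptl2-/- replicate 1 and 1 above without Angptl2+/+ replicate 1. The number of genes over the limit was 32 at 0.1 FPKM and 8 when every library had to exceed 0.5 FPKM. Of 227 values of the 14 named genes, 202 kept their direction and 25 turned, none past the threshold. The log2 fold change of Hist1h2bc was 0.024 when rescaled without mitochondrial and haemoglobin genes and 0.085 with the length correction, which gave 0.0044 for Hist3h2a and 0.064 for Hist1h2bg. The GC correction gave -0.13 for Hist2h2be, 0.21 for Hist2h3c2 and 0.050 for Hist1h2bg, and a pseudocount of 1 gave -0.0080 for Hist2h2be. Leaving out 1 library gave -1.30 to 0.47 for Hist1h1c, -0.34 to 0.12 for Hist1h2bc, -0.24 to 0.061 for Hist3h2a, -0.18 to 0.32 for Hist2h2be, -0.41 to 0.067 for Hist2h3c2, -0.47 to 0.25 for Hist1h2bg, -1.10 to 0.38 for Hist1h1e, -2.23 to 0.21 for Hist1h4k and -0.66 to 0.17 for Hist2h4, against -0.51 to -0.30 for Hist3h2ba and -2.85 to -1.96 for Hist1h4h. Apart from the effect of the filter, the causes were not tested. Depth limits the genes with few fragments, such as Hist1h4h with 26 against 3.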

Other observations

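Of the 3 histone rows annotated as pseudogenes, which were not counted among the 67 genes, Hist1h2al (chr13:51202727-51203065, outside the main Hist1 run of chromosome 13) read 0, 12.1 and 4.52 FPKM in Angptl2+/+ and 4.31, 5.24 and 1.80 FPKM in Angptl2-/-. Its highest and lowest library were both Angptl2+/+. Hist3h2bb-ps, which lies between Hist3h2ba and Hist3h2a on chromosome 11, read 0.361, 0.242 and 0.127 FPKM against 0.561, 0.510 and 0.394 FPKM, without overlap between genotypes. Hist1h2aj was listed at 0 in all 6 libraries.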
